A study of Homo sapiens with 12 samples.

Results

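The 56 nuclear genes described here encode subunits of respiratory complexes I, II, III and IV, and were taken as a fixed list of gene symbols, 36 from complex I, 4 from complex II, 9 from complex III and 7 from complex IV. They were compared with all 19974 protein-coding genes on chromosomes 1 to 22 and X. All 56 were found in the RefSeq gene table of GRCh38.p14, where NDUFA4, a subunit first assigned to complex I and now placed in complex IV, is listed under its newer symbol COXFA4. For each gene, peaks were read in the gene span plus 5 kb on both sides. A gene-end peak lay within 1 kb of either end of the gene, and a gene-body peak lay in the span without the 1 kb at each end.

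Chromatin accessibility was measured by ATAC-seq, in which a transposase cuts open chromatin, in MIAPaCa2, an established cell line from a pancreatic ductal adenocarcinoma. Parental cells and cells resistant to an LDHA inhibitor, polyclonal cells that survived culture of the line in sodium oxamate, were each profiled untreated and after treatment with the inhibitor. This gave untreated parental, treated parental, untreated resistant and treated resistant groups of 3 libraries each. The labels do not say whether the 3 libraries of a group came from separate cultures, so every p-value measures the spread between these libraries, which may be technical.

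The respiratory chain moves electrons from NADH (complex I) and succinate (complex II) through ubiquinone to complex III, and from there by cytochrome c to oxygen at complex IV. Complexes I, III and IV pump protons, and the gradient drives ATP synthesis. LDHA, the target of oxamate, turns pyruvate into lactate and in doing so regenerates NAD+, the product that complex I also returns. Most subunits of these complexes are made from nuclear genes that are active in nearly every cell, with promoters rich in CpG and in sites for NRF1, GABP and YY1.

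The deposited peak lists held 46401 to 63259 peaks and covered 13.8 to 33.7 Mb per library. The treated parental libraries covered the least, 13.8 to 19.4 Mb, and the untreated parental, untreated resistant and treated resistant libraries covered 20.7 to 25.5, 25.6 to 33.7 and 21.3 to 30.7 Mb. The lists hold no read counts. Relative depth was estimated from the background of each list, with the shallowest library at 1. It was 1.66 to 2.77 in treated parental and 1.00 to 1.13 in treated resistant libraries, without overlap. In untreated parental and untreated resistant libraries it was 1.33 to 1.77 and 1.01 to 1.85, which overlap. The narrowest peak was 67 to 87 bp wide in parental and 94 to 124 bp in resistant libraries, so peak width and phenotype cannot be told apart. Among marker genes, KRT8, KRT18, MUC1 and VIM had a gene-end peak in 12 libraries, KRT19 in 10, KRT7 and EPCAM in 1 and CDH1 in 0. CDKN2A and MTAP, which lie in a segment often deleted in this line, had none in any library, and the leukocyte and endothelial markers PTPRC, CD3E and PECAM1 had none at their gene ends. In bulk chromatin, a peak in fewer cells and a smaller peak in all cells cannot be told apart.

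The gene ends of the respiratory genes were open in nearly every library of every group. A gene-end peak was listed in 12 of 12 libraries for 53 of the 56 genes (94.6%), and for 10988 of the 19974 protein-coding genes. All 4 genes of complex II and all 9 of complex III were among them, with 34 of 36 for complex I and 6 of 7 for complex IV. Per library, 54 or 55 of the 56 genes had a gene-end peak. The 3 exceptions were NDUFA5, NDUFS6 and COX6C. NDUFA5 and NDUFS6 are accessory subunits of the peripheral arm of complex I, and COX6C is a small subunit of complex IV. NDUFS6 lacked the peak in treated parental library 1 alone. COX6C lacked it in treated parental libraries 1 and 2, where its whole window held 0 covered bases.

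NDUFA5 had a gene-end peak in 1 library only, treated parental 1, but was open at another of its starts in all 12. RefSeq lists 3 starts for this gene on the minus strand of chr7. The region chr7:123557430-123558401 spans the start at base 123557818, well inside the listed gene span, and was called in 12 of 12 libraries. The 300-base promoter window there was covered over all 300 bases in each library, whereas the windows of both outer starts, bases 123601611 and 123601651, had 0 covered bases in each. The 250 bases before the inner start and before the outermost one are shown to set an open and an unopened promoter of the same gene side by side (RefSeq, GRCh38.p14, minus strand, 5′ to 3′, chr7:123557819-123558068 and chr7:123601652-123601901). Capitals mark matches to the motif letters given further on: here a CCAAT box, the NRF1 core and a GC box in the inner promoter, and CCAAT boxes in the outer one.
NDUFA5, inner start: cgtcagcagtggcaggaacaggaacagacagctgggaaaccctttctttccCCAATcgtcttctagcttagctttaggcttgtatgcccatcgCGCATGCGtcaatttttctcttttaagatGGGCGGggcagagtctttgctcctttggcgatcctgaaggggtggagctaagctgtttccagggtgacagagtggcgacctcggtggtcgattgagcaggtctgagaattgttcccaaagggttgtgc
NDUFA5, outermost start: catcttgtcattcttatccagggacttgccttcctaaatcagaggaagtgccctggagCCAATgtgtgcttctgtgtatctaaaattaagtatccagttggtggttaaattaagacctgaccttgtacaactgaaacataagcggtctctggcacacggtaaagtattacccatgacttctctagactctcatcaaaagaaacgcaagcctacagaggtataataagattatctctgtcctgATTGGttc

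Peaks lay at the 5′ end of the genes. RefSeq promoter entries, which give strand and start, matched 48 of the 56 genes. Of these, 47 had a peak within 1 kb of a listed start in 12 of 12 libraries, against 58.6% of the 15812 protein-coding genes with an entry. A peak touched the 300-base promoter window in all 12 libraries in 47 genes and covered the whole window in all 12 in 19. At the 3′ end, 36 of the 48 genes had no peak within 1 kb in any library, 10 had a peak in 1 to 11 libraries, and NDUFA7 and NDUFB6 had it in 12. Another protein-coding gene lay in the 5-kb window of 43 of the 56 genes. For 16 of the 48 genes with an entry, the start of a gene on the opposite strand lay within 1 kb of the member's own start. Examples are RNF113A at NDUFA1, RPS28 at NDUFA7 and CCDC127 at SDHA, and a peak there belongs to both genes. Only starts with an entry could be found, so more genes may share a start.

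Promoter sequence was searched on both strands for 6 short motifs in the 48 genes with an entry, in the window from 250 bases before to 50 after the start. Matches of different motifs may overlap, and all counts are descriptions with no test. The YY1 letters AAGATGGCG occurred in 8 of 48 genes (16.7%), against 3.21% of all protein-coding genes with an entry and 5.21% of the 9268 whose start had a peak in 12 libraries. The NRF1 core CGCATGCG occurred in 6 (12.5%), against 3.28% and 4.98%. The ETS/GABP letters CCGGAAG occurred in 13 (27.1%), against 16.5% and 24.5%. The CCAAT box of NF-Y was found in 12 (25%), below the 42.1% of all and 44.5% of open promoters. The GC box GGGCGG, a site of SP and KLF factors, was found in 30 (62.5%), against 64.2% and 79.6%. The letters TATAAA of the TATA box were found in 4 (8.33%), against 12.4% and 7.67%. In all, 24 of the 48 genes held at least 1 match to YY1, NRF1 or ETS/GABP letters, against 21.1% of all and 31.7% of open promoters. Median GC content was 61.8% in the respiratory promoters and 65.2% in open promoters, and the median ratio of observed to expected CpG was 0.849 and 0.838.

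All 8 YY1 matches began 10 to 25 bases after the start and read in the direction of transcription, whereas 350 of the 546 matches in all promoters (64.1%) lay after the start. They are shown because they share this position: 30 bases from base 5 after the start, 5′ to 3′, RefSeq GRCh38.p14, with the YY1 letters in capitals. The subunits concerned are 6 of complex I, the iron-sulfur subunit SDHB of complex II and the core subunit UQCRC1 of complex III. The stretches lie at chr22:42090738-42090767 (NDUFA6, minus strand), chr19:8321341-8321370 (NDUFA7, minus strand), chr12:4649119-4649148 (NDUFA9, plus strand), chr10:100529837-100529866 (NDUFB8, minus strand), chr5:53560644-53560673 (NDUFS4, plus strand), chr19:1383912-1383941 (NDUFS7, plus strand), chr1:17053998-17054027 (SDHB, minus strand) and chr3:48609612-48609641 (UQCRC1, minus strand). The letters hold an ATG, and whether that ATG starts translation was not examined.
NDUFA6: tgtggagtggatgctttggcAAGATGGCGg
NDUFA7: cgcggacggAAGATGGCGtccgccacccgt
NDUFA9: gggaaAAGATGGCGgctgccgcacaatccc
NDUFB8: gtgaagaaggtgAAGATGGCGgtggccagg
NDUFS4: ggcgtttgcctgcagcAAGATGGCGgcggt
NDUFS7: aaggccgaggccAAGATGGCGgtgctgtca
SDHB: gagccAAGATGGCGgcggtggtcgccctct
UQCRC1: agggccgactgcagctggAAGATGGCGgcg

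Many peak regions of these genes were common to all libraries. Merging the peaks of the 12 lists gave 202 regions in the gene windows, of which 74 (36.6%) were called in all 12 libraries and 86 (42.6%) in 1 library. Of the 178040 regions of the whole series, 13.6% were called in 12 libraries and 59.5% in 1, and of the 109418 regions in the same windows of all protein-coding genes, 16.4% and 57.1%. The difference between these shares was not tested. Only COX6C had no region called in 12 libraries, 39 genes had 1, and 16 had 2 or more. NDUFA5, NDUFA10 and NDUFB6 had 3 each. The others with 2 were NDUFA1, NDUFA7, NDUFA13, NDUFB3, NDUFB7, NDUFB8, NDUFB10, NDUFC1, NDUFS8, NDUFV2, SDHA, SDHC and UQCR11.

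Gene bodies held few peaks. COX8A is 1924 bp long and has no body by this definition. Of the other 55 genes, 26 had no gene-body peak in any library, 26 had one in 1 to 11 libraries, and NDUFA5, NDUFA10 and NDUFC1 had one in 12. Among the 18725 protein-coding genes with a body, 31.7% had a body peak in 12 libraries and 24.9% in none. The respiratory genes are short, with a median length of 11.2 kb against 24.2 kb. No body peak in any library was found for 16 of 36 genes of complex I, 1 of 4 of complex II, 4 of 9 of complex III and 5 of 6 of complex IV.

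Covered bases, the number of bases in the gene window that lie in a peak, differed between genes more than between groups. Each value here is in bp of peak over the gene and 5 kb on both sides, so longer genes can hold more. Peaks in the flanks count as well. For example, NDUFV2, SDHA and NDUFB6 had regions outside the gene called in 12 libraries (1975, 999 and 1204 bp wide after merging). The highest means over 12 libraries belonged to NDUFV2 (2972 bp), an iron-sulfur core subunit of complex I, NDUFA10 (2748 bp), SDHA (2616 bp), the flavoprotein of complex II, and NDUFB6 (2463 bp). The lowest belonged to NDUFA3 (426 bp), UQCRFS1 (432.5 bp), the Rieske iron-sulfur protein of complex III, COX7C (447 bp) and COX6C (482 bp). The median gene had 1112 bp in complex I, 1194 bp in complex II, 1041 bp in complex III and 877.5 bp in complex IV. All 4 complexes had their lowest group median in treated parental libraries: 816.5 bp in complex I against 1115 bp in untreated parental, 1274 bp in untreated resistant and 1197 bp in treated resistant libraries.

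**Figure D1:**
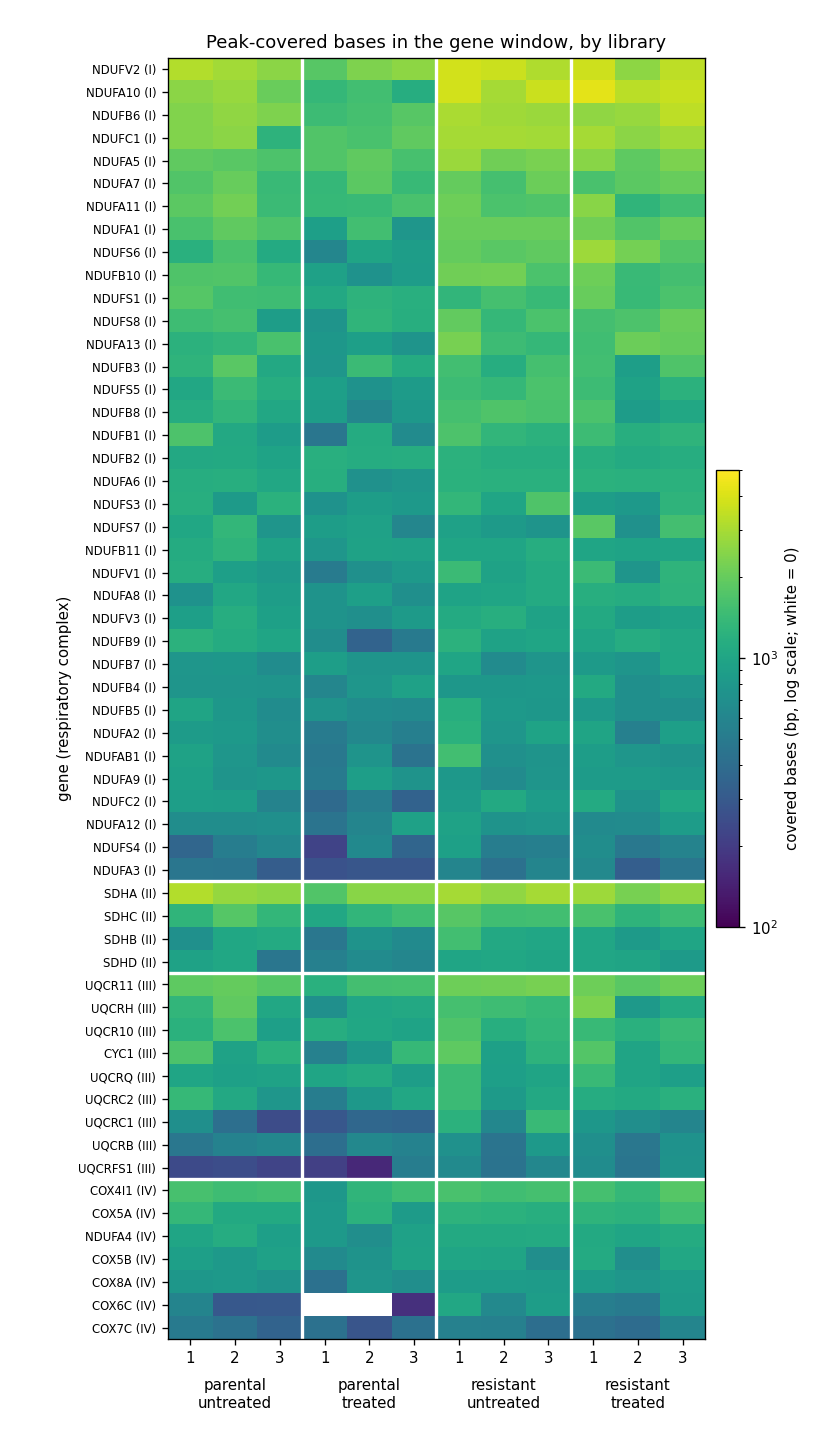
Covered bases (bp, log colour scale) of the 56 genes in each of the 12 libraries, genes grouped by complex and ordered by their mean. The treated parental columns are darker in most rows, and the white cells are the 0 bp of COX6C in treated parental libraries 1 and 2.

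Summed over the 56 genes, covered bases were 66.9 ± 6.81 kb in untreated parental, 51.0 ± 5.04 kb in treated parental, 78.4 ± 7.15 kb in untreated resistant and 75.6 ± 8.97 kb in treated resistant libraries (mean ± SD, n = 3). The 3 treated parental sums, 45.2, 54.3 and 53.4 kb, lay below all 9 others. All genes moved with them: the median protein-coding gene with peaks had 687 to 878 bp in treated parental libraries and 968 to 1521 bp in the others. On the log2 scale the median gene differed by -0.43 between treated and untreated parental and by 0.58 between treated resistant and treated parental libraries. For that reason each library was centred on its median gene before testing, and differences are given relative to that median.

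The limma fit of log2 covered bases tested 16974 genes, all 56 respiratory genes among them, and called genes at an adjusted p under 0.05. For treated against untreated parental cells it called 0 of the 56, against 1.28% of all genes, with 9 of the 56 at an unadjusted p under 0.05 (16.1%, and 16.9% of all genes). For treated against untreated resistant cells it called 0 of the 56 and 0% of all, with 1 of the 56 (NDUFS7) and 533 genes in all under 0.05 unadjusted. For resistant against parental cells without treatment it called 0 of the 56 and 0.0236% of all, with 3 of the 56 under 0.05 unadjusted (5.36%, and 8.34% of all genes). For treated resistant against treated parental cells it called 4 of the 56 (7.14%), against 7.62% of all genes, so the share was near the background. Of these, 3 were higher in resistant cells (5.38% of all genes were) and 1 was lower (2.23% of all genes were). In this comparison 15 of the 56 were under 0.05 unadjusted (26.8%, and 26.9% of all genes). For the interaction of phenotype and treatment it called 0 of the 56 and 0% of all, with 3 of the 56 and 1514 genes in all under 0.05 unadjusted.

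The median difference of the 56 genes was 0.11 for treatment in parental cells, 0.04 for treatment in resistant cells, -0.04 between untreated phenotypes and -0.12 between treated phenotypes, where the medians of all genes were 0.01, 0.01, -0.02 and -0.01. In the last comparison 40 of the 56 differences were below 0 and 16 above. The median standard error of a gene was 0.19 on this scale. Without centring, which adds the same shift to every gene, the treated resistant against treated parental fit called 17 of the 56 genes higher and 0 lower (30.4%), against 38.3% of all genes (37.9% higher and 0.377% lower). With peaks limited to a −log10 q of 3 or more it called 1 higher and 13 lower (25%), against 27.4% of all genes (13.4% higher and 14.0% lower).

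**Figure D2:**
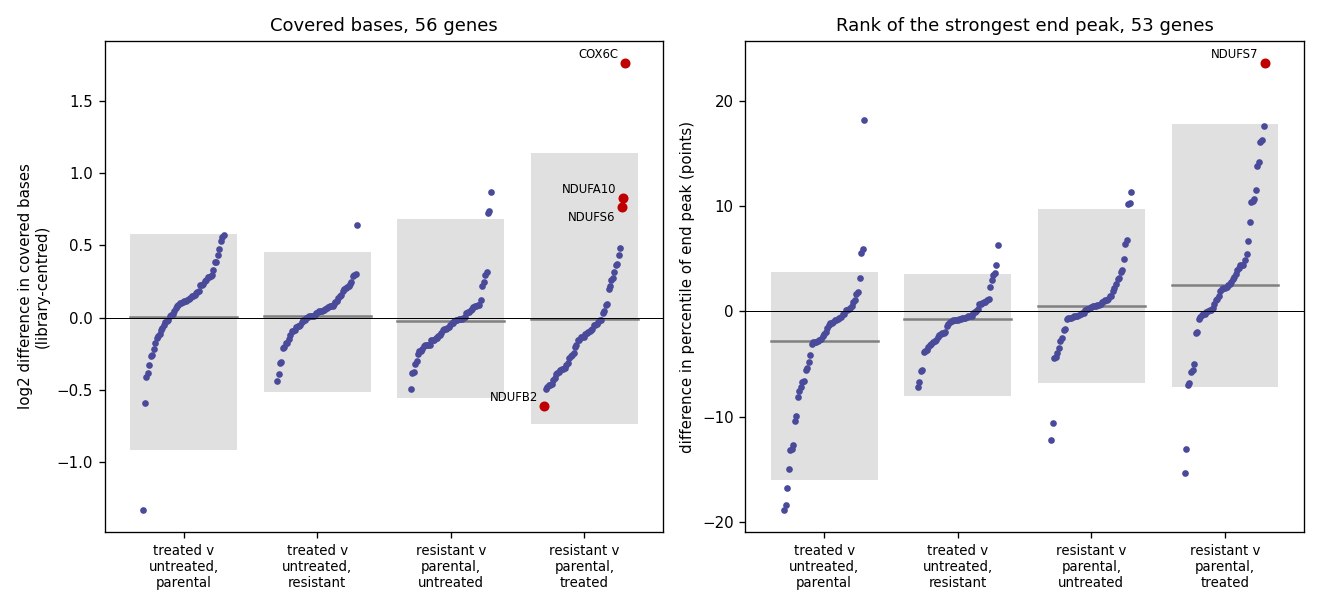
Differences of the respiratory genes in 4 comparisons, each gene a point in order of its value: log2 covered bases relative to the library median (left, 56 genes) and percentile of the strongest gene-end peak (right, 53 genes). Grey boxes hold the 5th to 95th percentile of all genes tested with their median as a line, and red points, all in the treated resistant against treated parental comparison, passed an adjusted p of 0.05.

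NDUFA10, an accessory subunit of complex I, had the smallest adjusted p of the 4. Covered bases were 2548, 2733 and 2052 bp in untreated parental, 1355, 1524 and 1146 bp in treated parental, 3816, 2948 and 3631 bp in untreated resistant and 4258, 3342 and 3622 bp in treated resistant libraries. Before centring, every resistant library lay above every parental library, and every treated parental library below every untreated one. The median gene moved the same way, by 0.22 between untreated phenotypes, 0.58 between treated phenotypes and -0.43 for treatment in parental cells. How many of all genes separated like this was not counted, here or for the genes below. The difference between treated resistant and treated parental cells was 0.83 (SE 0.13, limma adjusted p = 0.0050) relative to the library median and 1.42 without centring. Treatment in parental cells gave -0.38 (SE 0.13, adjusted p = 0.17), and the interaction 0.58 (SE 0.18, adjusted p = 0.35). The call was kept whichever library was left out and lost with peaks limited to a −log10 q of 3 or more (0.28, adjusted p = 0.22).

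The start of NDUFA10 was open throughout, and 16 of the 17 regions that varied between libraries lay inside the gene. Its 132901-bp span on the minus strand of chr2 (chr2:239892442-240025342) and the flanks held 20 merged regions. The start region, chr2:240024831-240026036, and 2 body regions, chr2:240021461-240021862 and chr2:239927351-239927914, were called in 12 libraries. The region chr2:240012912-240013831 was called in 2, 1, 3 and 3 of 3 libraries in the untreated parental, treated parental, untreated resistant and treated resistant groups. The region chr2:239913144-239913992 was called in 0, 0, 2 and 2, and chr2:239993918-239994382 in 2, 0, 1 and 2. In the promoter window 293 to 300 of 300 bases were covered in each library. The strongest gene-end peak ranked lowest in treated parental libraries, at percentiles 53.1, 77.8 and 74.8, against 81.0 to 92.0 in the other 9. The 250 bases before the start are shown for comparison with genes whose start itself varied (chr2:240025343-240025592, minus strand, RefSeq GRCh38.p14). The capitals mark a GC box, the only match.
NDUFA10: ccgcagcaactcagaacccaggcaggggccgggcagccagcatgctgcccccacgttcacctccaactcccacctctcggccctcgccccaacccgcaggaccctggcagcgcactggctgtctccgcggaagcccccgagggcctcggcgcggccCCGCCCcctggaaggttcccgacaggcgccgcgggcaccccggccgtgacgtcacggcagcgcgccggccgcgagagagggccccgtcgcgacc

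**Figure D3:**
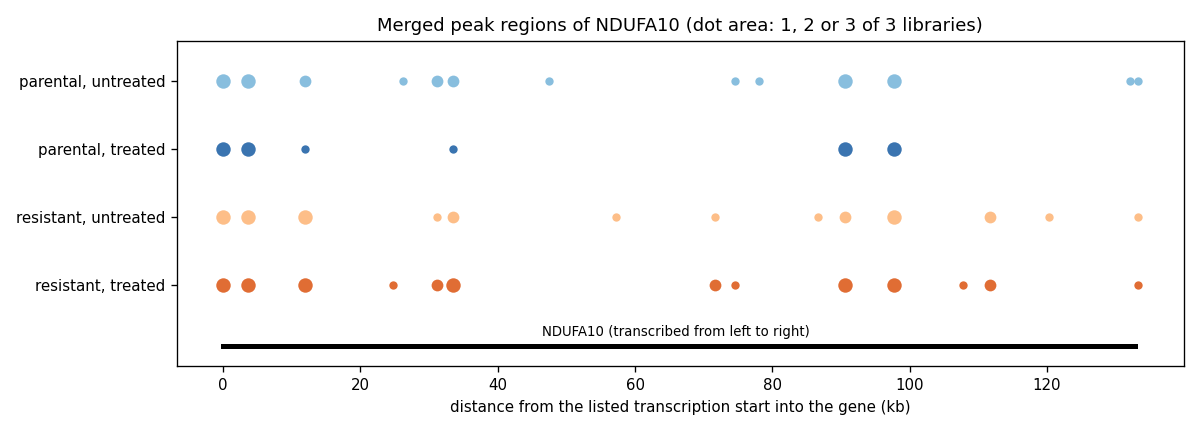
Merged peak regions along NDUFA10 by distance from its start (kb), 1 row per group, with dot area for 1, 2 or 3 of 3 libraries. The start region is present in all groups, and the treated parental row has the fewest dots, 6 against 13 in each other row.

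COX6C covered 583, 293 and 297 bp in untreated parental, 0, 0 and 172 bp in treated parental, 1051, 627 and 877 bp in untreated resistant and 534, 501 and 846 bp in treated resistant libraries. Its window held 1 merged region, at the upper gene end. Before centring, the treated parental values lay below the other 9, and the untreated groups did not overlap either. Relative to the library median the treated resistant against treated parental difference was 1.76 (SE 0.39, limma adjusted p = 0.019), on the scale of log2 of covered bases plus 100. Treatment in parental cells gave -1.33 (SE 0.39, adjusted p = 0.11). In the 10 libraries with the peak, its median percentile was 42.8, the lowest of the list, so the peak was a weak one where present. The call was lost without treated resistant library 1 (1.92, adjusted p = 0.051) or 3 (1.59, adjusted p = 0.087), with peaks limited to a −log10 q of 3 or more (0.99, adjusted p = 0.45), with equal numbers of top peaks per list (1.76, adjusted p = 0.059) and with a pseudocount of 500 bp (0.59, adjusted p = 0.060). With a pseudocount of 20 bp the difference was 3.25 (adjusted p = 0.022), so its size depends on what is added to the 0 values.

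NDUFS6 covered 1199, 1619 and 1093 bp in untreated parental, 601, 986 and 888 bp in treated parental, 1988, 1834 and 1929 bp in untreated resistant and 2838, 2198 and 1753 bp in treated resistant libraries. Parental and resistant libraries did not overlap before centring. The treated resistant against treated parental difference was 0.76 (SE 0.18, limma adjusted p = 0.025) relative to the library median. It missed the threshold without treated parental library 1 (0.67, adjusted p = 0.068), treated resistant library 1 (0.67, adjusted p = 0.11) or treated resistant library 2 (0.66, adjusted p = 0.064). In the 300-base promoter window, 300, 300 and 7 bases were covered in untreated parental, 0, 0 and 300 in treated parental and 300 in each resistant library. The strongest gene-end peak had a median percentile of 52.4 over the 11 libraries that held it. The 250 bases before the start carry a GC box on the opposite strand and the NRF1 core, in capitals (chr5:1801157-1801406, plus strand, RefSeq GRCh38.p14).
NDUFS6: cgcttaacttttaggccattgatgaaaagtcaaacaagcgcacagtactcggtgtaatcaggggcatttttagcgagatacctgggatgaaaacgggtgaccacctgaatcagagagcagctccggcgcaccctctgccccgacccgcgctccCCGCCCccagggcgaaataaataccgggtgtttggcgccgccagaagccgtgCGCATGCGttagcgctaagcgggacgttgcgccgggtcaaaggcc

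NDUFB2, an accessory subunit of the membrane arm of complex I, was the 1 gene called lower, and its covered bases hardly varied. They were 1065, 1070 and 970 bp in untreated parental, 1179, 1128 and 1138 bp in treated parental, 1230, 1139 and 1141 bp in untreated resistant and 1167, 1098 and 1137 bp in treated resistant libraries. The treated groups overlapped. Relative to the library median the difference between treated resistant and treated parental cells was -0.61 (SE 0.16, limma adjusted p = 0.038), and without centring it was -0.02 (adjusted p = 0.92). The call rests on the centring and describes a gene that stayed near 1100 bp while the median gene covered fewer bases in treated parental libraries. It was also lost without treated parental library 1 (-0.50, adjusted p = 0.10) or 3 (-0.64, adjusted p = 0.056), without untreated resistant library 3 (-0.61, adjusted p = 0.052), and without treated resistant library 1 (-0.55, adjusted p = 0.14) or 3 (-0.58, adjusted p = 0.12). Its 1 region, chr7:140696361-140697637, was called in 12 libraries. The promoter holds a GC box (capitals; chr7:140696458-140696707, plus strand, RefSeq GRCh38.p14).
NDUFB2: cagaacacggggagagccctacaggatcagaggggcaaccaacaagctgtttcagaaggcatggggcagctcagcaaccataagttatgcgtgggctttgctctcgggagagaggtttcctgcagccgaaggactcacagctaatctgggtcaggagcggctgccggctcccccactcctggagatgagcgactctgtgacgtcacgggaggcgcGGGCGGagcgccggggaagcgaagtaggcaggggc

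**Figure D4:**
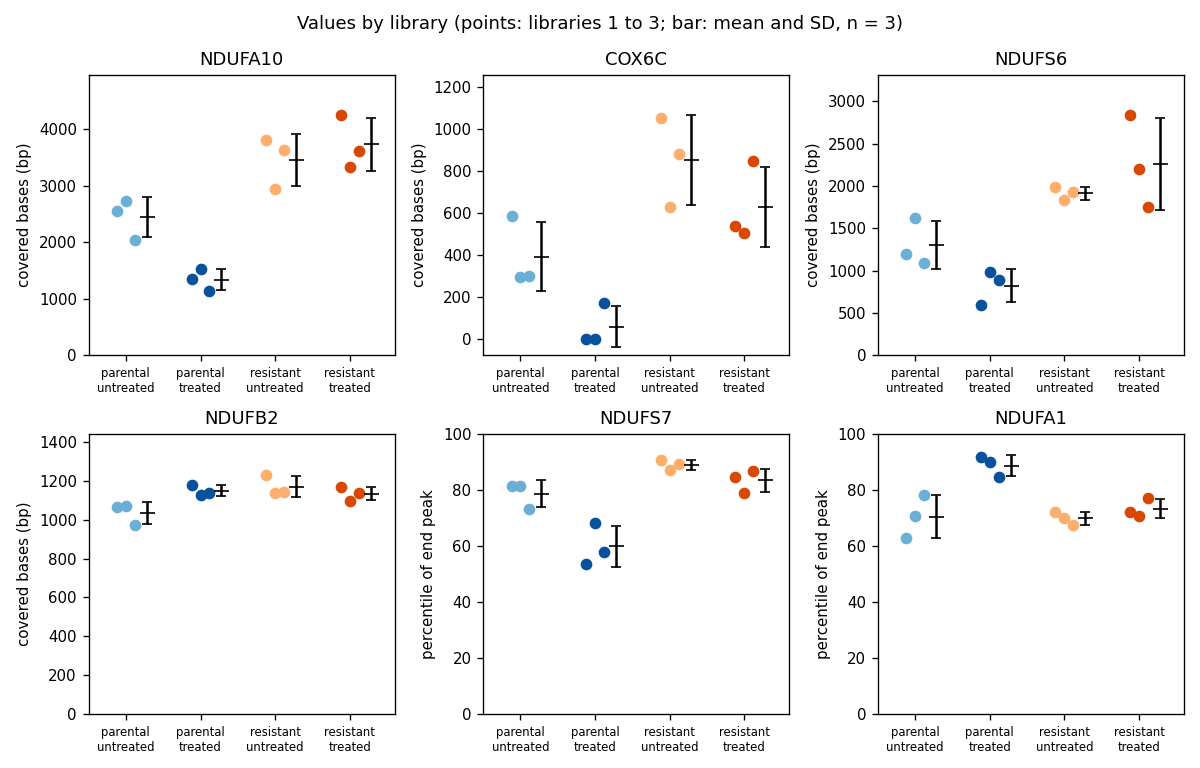
Covered bases (bp) of NDUFA10, COX6C, NDUFS6 and NDUFB2 and percentile of the strongest gene-end peak of NDUFS7 and NDUFA1, by library, with mean and SD (n = 3). The treated parental points of NDUFA10 and NDUFS6 lie below all resistant points, those of NDUFB2 among the others, and those of NDUFA1 above the other groups.

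In the other comparisons the genes with the smallest p did not pass the adjustment. After treatment of parental cells these were NDUFB2 (0.57, SE 0.16, adjusted p = 0.098), COX6C and NDUFA5 (0.38, SE 0.12, adjusted p = 0.13), and the uncentred differences of NDUFB2 and NDUFA5 were 0.14 and -0.05. Between untreated phenotypes they were UQCRC1 (0.87, SE 0.30, adjusted p = 0.45), with 700, 415 and 248 bp in parental and 1239, 614 and 1423 bp in resistant libraries, NDUFS1 (-0.38, SE 0.16, adjusted p = 0.56), which carries iron-sulfur clusters of complex I, and UQCRFS1 (0.73, SE 0.32, adjusted p = 0.58). UQCRFS1 had 239, 252 and 223 bp in parental and 646, 447 and 610 bp in resistant untreated libraries, without overlap before centring. After treatment of resistant cells they were NDUFS7 (0.64, SE 0.25), NDUFS1 (0.30, SE 0.16) and NDUFB8 (-0.39, SE 0.22), each at an adjusted p of 1.00. NDUFS7 then had 943, 847 and 752 bp before and 1832, 719 and 1562 bp after treatment, and the groups overlapped. For the interaction they were NDUFA10, NDUFB2 (-0.53, SE 0.22, adjusted p = 0.53) and NDUFA5 (-0.39, SE 0.17, adjusted p = 0.53).

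The strength of the gene-end peak was read as its percentile by −log10 q within its own list, where 100 is the strongest peak. The median respiratory gene stood at 87.6 to 91.7 in the 12 libraries, and the median of all 10988 genes with a gene-end peak in every library at 81.2 to 89.0. NDUFV3 had the highest median, 99.3 (range 97.4 to 99.8), followed by NDUFA11 at 98.7, UQCRQ at 98.3 and NDUFB11 at 97.9. The lowest among genes with the peak in 12 libraries were NDUFC2, NDUFB8 and NDUFA1. By complex, the median was 87.8 in complex I, 84.7 in complex II, 91.0 in complex III and 91.5 in complex IV.

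**Figure D5:**
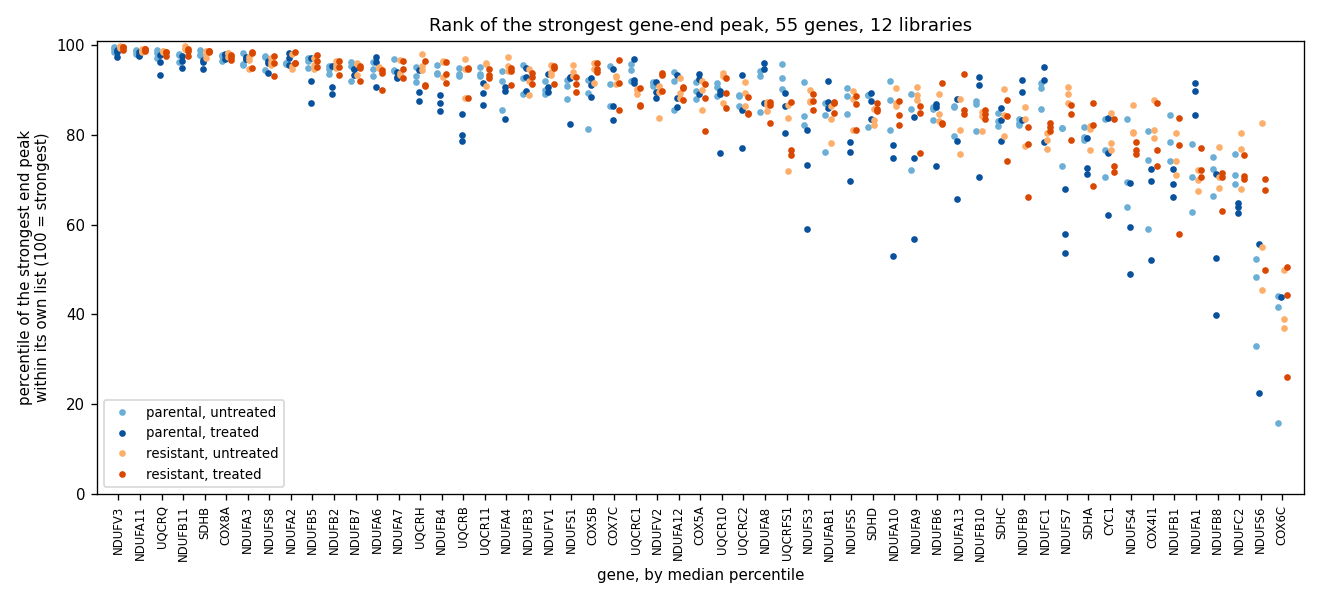
Percentile of the strongest gene-end peak within its own list (100 = strongest) for 55 genes, each point a library, ordered by the median, with NDUFA5 left out because it had a gene-end peak in 1 library. Points gather above 80 on the left and spread most on the right, where NDUFS6 and COX6C lie lowest.

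In the limma fit of these percentiles, 53 respiratory genes were among the 10988 tested. It called 0 of the 53 for treatment in parental cells (0.191% of all genes), 0 for treatment in resistant cells (0% of all, 235 genes under 0.05 unadjusted), 0 between untreated phenotypes (0.0091% of all) and 0 for the interaction (0% of all, 760 genes under 0.05 unadjusted). The numbers of the 53 under an unadjusted p of 0.05 were 12 (22.6%, and 19.1% of all genes), 0 (2.14% of all), 6 (11.3%, and 7.54% of all) and 6 (11.3%, and 6.92% of all). Between treated phenotypes it called 1 of the 53 (1.89%), against 3.42% of all genes, and 14 of the 53 were under 0.05 unadjusted (26.4%, and 26.4% of all genes).

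The called gene was NDUFS7, the core subunit that holds the last iron-sulfur cluster before ubiquinone. Its percentiles were 81.5, 81.4 and 73.1 in untreated parental, 53.6, 68.0 and 57.9 in treated parental, 90.6, 87.1 and 89.0 in untreated resistant and 84.5, 78.9 and 86.7 in treated resistant libraries. All treated parental values lay below all others. The difference between treated phenotypes was 23.6 points (SE 3.80, limma adjusted p = 0.024), treatment in parental cells gave -18.8 points (SE 3.80, adjusted p = 0.084) and the interaction 13.3 points (SE 5.37, adjusted p = 0.71). The call was lost without treated parental library 1 (20.4 points, adjusted p = 0.051) and without treated resistant library 1 (22.99 points, adjusted p = 0.091) or 3 (21.9 points, adjusted p = 0.10). With the replicate block NDUFS7 was not called (adjusted p = 0.053) and UQCRB was. The 250 bases before its start hold the NRF1 core and a GC box, in capitals (chr19:1383657-1383906, plus strand, RefSeq GRCh38.p14), and the YY1 letters shown before follow the start.
NDUFS7: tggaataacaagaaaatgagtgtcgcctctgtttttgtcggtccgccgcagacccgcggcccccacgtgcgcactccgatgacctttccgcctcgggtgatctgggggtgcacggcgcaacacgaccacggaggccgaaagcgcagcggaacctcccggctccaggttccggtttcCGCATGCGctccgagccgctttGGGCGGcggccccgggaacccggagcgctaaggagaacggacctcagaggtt

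Close to the threshold, UQCRB, a subunit of complex III that binds ubiquinone, stood at 94.8, 93.5 and 93.2 in untreated parental, 80.1, 84.7 and 78.6 in treated parental, 94.6, 96.8 and 88.1 in untreated resistant and 94.8, 94.9 and 88.2 in treated resistant libraries. The treated phenotypes differed by 11.5 points (SE 2.67, adjusted p = 0.0503) without overlap. NDUFA1, a membrane-arm subunit of complex I encoded on the X chromosome, went the other way. It stood at 62.7, 70.5 and 78.1 in untreated parental, 91.6, 89.7 and 84.5 in treated parental, 72.1, 69.9 and 67.4 in untreated resistant and 72.1, 70.7 and 77.1 in treated resistant libraries. Its treated phenotypes differed by -15.4 points (SE 3.64, adjusted p = 0.052), and treatment in parental cells gave 18.2 points (SE 3.64, adjusted p = 0.084). The start of RNF113A lies within 1 kb of that of NDUFA1, and the covered bases of NDUFA1 were 1638, 1922 and 1674 bp in untreated and 903, 1527 and 786 bp in treated parental libraries (centred difference -0.27, adjusted p = 0.47), so its rank was higher and its covered bases lower in treated parental libraries.

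The next smallest p-values also missed the adjustment. NDUFS5 gave an interaction of 12.3 points (SE 4.43, adjusted p = 0.68), and UQCRB and NDUFA1 gave 12.1 and -14.7 points (adjusted p = 0.64 and 0.67). Between untreated phenotypes NDUFC1 differed by -10.6 points (SE 3.71, adjusted p = 0.56), although with gene ends of 500 bp it was called in the opposite direction, UQCRFS1 by -12.2 points (SE 4.41, adjusted p = 0.58) and NDUFS7 by 10.3 points (SE 3.80, adjusted p = 0.59). For UQCRFS1 the rank was thus lower in resistant libraries while its covered bases were higher. After treatment of resistant cells NDUFV2 gave 4.37 points (SE 1.95), NDUFB9 -7.12 points (SE 3.99) and UQCRH -3.20 points (SE 2.16), each at an adjusted p of 1.00.

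All-or-none peaks were few: these were listed in each of the 3 libraries on one side of a comparison and in 0 of 3 on the other. None of the 56 genes had an all-or-none gene-end or gene-body peak for treatment in parental cells (1.91% of all genes), for treatment in resistant cells (0.416%) or between untreated phenotypes (0.981%). Between treated phenotypes 2 of the 56 had one, against 2.82% of all genes. Both were gene-body peaks, in NDUFB10 and NDUFA13, accessory subunits of the membrane arm of complex I, and both were present in treated resistant and absent from treated parental libraries. The body peak of NDUFB10 was listed in 2, 0, 3 and 3 of 3 libraries in the untreated parental, treated parental, untreated resistant and treated resistant groups, and that of NDUFA13 in 2, 0, 2 and 3. The regions were chr16:1960354-1961547 and chr19:19525233-19526808, both inside the genes. The NDUFB10 region reaches into the 1 kb at both ends of this short gene, and counted whole it was called in 3, 0, 3 and 3 libraries, so as a region it was also present in all untreated and no treated parental libraries. The NDUFA13 region gave the same counts as its body peak. The start of each gene had a peak in 12 libraries. Other genes with body peaks that varied went both ways. NDUFV2 had a body peak in 1, 0, 3 and 2 libraries of the groups, NDUFA9 in 2, 2, 0 and 0 and NDUFA8 in 3, 3, 1 and 3. In NDUFA9 each of these body regions was called in 1 library.

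Fisher's exact test of 6 against 6 libraries was run only on genes whose number of libraries with a peak could reach p under 0.05. For gene-end peaks this left 458 genes and 0 of the 56, with 0% called by phenotype and 0% by treatment, and 52 and 6 genes under 0.05 unadjusted. For gene-body peaks it left 1465 genes and 3 of the 56, with 0% called by phenotype and 0% by treatment, and 88 and 23 genes under 0.05 unadjusted. The 3 genes were NDUFV2 (5 resistant and 1 parental libraries, two-sided exact p = 0.080, adjusted p = 0.67), NDUFA13 (5 and 2 libraries, exact p = 0.24, adjusted p = 0.72) and UQCRB (3 and 2 libraries, exact p = 1.00).

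Other genes of the pathway were read in the same fit of covered bases. A gene-end peak in 12 libraries was found for 15 of 16 subunits of ATP synthase (complex V), 14 of 14 assembly factors of complex I, 29 of 29 of complexes II to IV, 11 of 11 genes of ubiquinone and cytochrome c, 12 of 12 regulators and 4 of 11 further complex IV subunits and isoforms, a list that includes tissue-specific forms. Between treated phenotypes 5.38% of all genes were called higher and 2.23% lower. Of the 16 genes of complex V 0 were called higher and 1 lower, and of the 14 of complex I assembly 0 and 2. The counts were 0 and 0 of 29 in complex II to IV assembly and 0 and 1 of 11 among carriers. They were 1 and 0 of 12 among regulators and 0 and 0 of 10 tested further complex IV genes. Differences from the shares of all genes were not tested. The medians were -0.23, -0.13, -0.13, -0.15, -0.06 and -0.04, beside -0.12 for the 56 genes. In the other comparisons limma called 0 genes of these lists. For treatment in parental cells, 3 of 16, 5 of 14, 6 of 29, 2 of 11, 2 of 12 and 1 of 10 were under 0.05 unadjusted, in the same order. Of all genes 16.9% were. In the remaining comparisons 0 to 3 of a list were under 0.05 unadjusted, and 3.14 to 8.92% of all genes. These shares were not tested against each other.

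The called regulator was PPARGC1B, a coactivator of mitochondrial genes. It covered 3901, 3834 and 3313 bp in untreated parental, 1521, 2380 and 2291 bp in treated parental, 5477, 3754 and 4635 bp in untreated resistant and 5362, 3541 and 5213 bp in treated resistant libraries. The treated groups did not overlap before centring. They differed by 0.56 (SE 0.12, limma adjusted p = 0.018) relative to the library median and by 1.15 without centring. The genes called lower were ATP5F1B, the catalytic beta subunit of ATP synthase (-0.55, adjusted p = 0.030), the assembly factors ECSIT (-0.47, adjusted p = 0.039) and TIMMDC1 (-0.69, adjusted p = 0.037), and COQ7 of ubiquinone synthesis (-0.55, adjusted p = 0.048). Without centring their differences were 0.04, 0.12, -0.10 and 0.04, so that only TIMMDC1 stayed below 0.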

How the data were processed

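ATAC-seq libraries of MIAPaCa2 cells were grouped by their titles into 4 groups of 3. Per the labels and the study's methods, the authors aligned reads to hg38 with Bowtie2 2.1.0, discarded duplicates as well as reads that were mitochondrial or not uniquely placed, and ran MACS2 in broad mode on each library separately. The MACS2 version is not given in the sources used here. The deposited lists give a score, a fold ratio over background and −log10 p and q per peak, and no read counts, so depth is unknown beyond a relative estimate and no counting interval is given. Only chromosomes 1 to 22 and X entered the analysis, which left out 0.892% of peaks. Genes, starts and sequences came from RefSeq (GRCh38.p14).

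Covered bases were tested as log2(bp + 100), centred on the library median, in protein-coding genes covered in at least 3 of 12 libraries. The fold changes understate those of thinly covered genes. Gene-end peak percentiles were tested in genes with the peak in 12 libraries. Both fits used limma 3.58.1 (R 4.3.3) over all 4 groups with Benjamini-Hochberg adjustment, and the code was tested on simulated data. Presence was tested by two-sided Fisher's exact tests. Alternatives changed the peaks, windows, pseudocount, centring, filter, ranking, replicate block and libraries. Deviations from the group means correlated at -0.17 to 0.19 between same-numbered libraries of different groups. Differently numbered libraries were not set beside them, so whether replicate numbers pair libraries could not be decided. Apart from the replicate block, the fits took libraries as unpaired.

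Genes named with values were those without a gene-end peak in 12 libraries, those past an adjusted p of 0.05, the 3 smallest p-values per comparison, the 4 most and 4 least covered, and those with all-or-none peaks. The genes with the highest and lowest peak percentiles, and those near the threshold or called in the pathway lists, were named after their values were seen. The members and lists were chosen with earlier results of these data known.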

Additional observations from a re-analysis of the deposited data

How the results depend on the processing

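Of the recomputed counts, 316 stayed within 1.5 times of the value reported and 44 did not. The 316 include counts of 0 that stayed at 0, so the tally says little about counts above 0. The differences of NDUFA10, COX6C, NDUFS6, NDUFB2 and NDUFS7 kept their sign in every alternative run, and lost their call in 20 and kept it in 86. Counts here are of the 56 respiratory genes. For covered bases between treated phenotypes the count of 4 (7.14%, and 7.62% of all genes) became 14 (25%, and 27.4% of all) with peaks limited to a −log10 q of 3 or more, 17 (30.4%, and 38.3%) without centring and 7 (3 higher, 4 lower; 12.5%, and 4595 of 19974 genes) without the filter. For treatment in parental cells the count of 0 became 1 with the stricter peaks (NDUFB2; 5.41% of all), 1 with 2-kb flanks (NDUFB10; 1.30%) and 7, all lower, without centring (12.5%, and 10.6%). For peak rank between treated phenotypes the count of 1 became 3 with 500-bp ends (5.66%, and 3.82% of all), 2 with wide peaks (3.77%, and 380 of 10558 genes), 6 on the logit scale (11.3%, and 10.7%) and 10 when ranked by fold (18.9%, and 12.7%), and between untreated phenotypes the count of 0 became 1 with 500-bp ends (NDUFC1). Body peaks in 12 libraries rose from 3 to 11 genes with 500-bp ends. All-or-none counts became 1 with 500-bp ends for treatment in parental cells (NDUFB10) and between untreated phenotypes (COX6C), 1 with 2-kb ends between treated phenotypes (NDUFA13), 1 with stricter peaks between untreated (NDUFA8) and treated phenotypes (NDUFS6), and 1 with equal numbers of peaks for treatment in resistant cells (NDUFA13). Fisher's test of gene-end peaks by phenotype called 1 gene with stricter peaks (NDUFS6). How many of all genes it called with stricter peaks was not recorded, so the call has no background beside it. The cause of these changes was not tested. For the body-peak and all-or-none counts, the share of all genes under each changed setting was not counted. Those changes therefore cannot be called particular to the genes named.

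Leaving out 1 library gave 0 to 1 genes for covered bases after treatment of parental cells (COX6C without treated parental library 3) and 1 to 4 between treated phenotypes, with 2 left without treated parental library 1, 1 without treated resistant library 1 and 2 without treated resistant library 3 (3.57, 1.79 and 3.57%, against 5.09, 1.64 and 1.70% of all genes). The count over all genes ranged from 276 to 1325. Peak rank gave 0 to 2 genes for treatment in parental cells and 0 to 6 between treated phenotypes, with 0 without treated resistant library 1 or 3 and 6 without treated parental library 3 (11.3%, against 6.23% of all genes). The count over all genes ranged from 9 to 968 there and from 2 to 384 for treatment in parental cells. All-or-none counts ranged over 0 to 1, 0 to 3, 0 to 2 and 2 to 4 in the order parental treatment, resistant treatment, untreated and treated phenotypes. A group left with 2 libraries meets the all-or-none rule more easily for any gene. The share of all genes in these runs was not counted, so higher counts cannot be called particular to the respiratory genes. With the replicate block, covered bases between treated phenotypes called 3 genes (NDUFB2 lost, adjusted p = 0.060) and peak rank 1 (UQCRB, with NDUFS7 at 0.053), and the counts over all genes were 970 against 1293 and 115 against 376. Over all genes the count for covered bases between treated phenotypes ranged from 970 to 6505 over the settings that kept all libraries.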
